A study of Mus musculus with 6 samples.

Results

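The genes described here encode subunits of canonical and non-canonical BAF, forms of the SWI/SNF chromatin remodelling complex, other than the ATPases and scaffolds of its core. They are 10 genes chosen by name, Arid1a and Arid1b, Dpf1, Dpf2 and Dpf3, Ss18, Bcl7a, Bcl7b and Bcl7c, and Brd9, and all 10 were rows of the deposited table of 24063 gene symbols. RNA was sequenced from LSK cells, the lineage-negative, cKit-positive and Sca1-positive bone marrow fraction that holds blood stem cells and early progenitors. The 3 libraries labelled knockout came from Arid2fl/fl:MxCre+ mice, in which a Cre recombinase driven by the interferon-responsive Mx promoter can delete the floxed Arid2 gene. The 3 control libraries came from MxCre+ mice that carry the same Cre and, per the sample titles, wild-type Arid2. Both groups were of the C57/BL6 background, received pIpC when 6 to 8 weeks old, an RNA analogue that induces interferon, and were sampled 6 weeks later, so Cre, injection and time after injection are shared. The Mx promoter is not specific to LSK cells, and the labels tie no library to an animal or litter, and do not say whether animals were pooled. The p-values therefore measure the spread between these libraries, which may be technical.

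SWI/SNF complexes use ATP to slide and evict nucleosomes, and so open DNA to transcription factors. Canonical BAF is built around ARID1A or ARID1B, which are alternatives to each other and to ARID2 of PBAF, and carries a DPF subunit that reads histone tails. Non-canonical BAF lacks an ARID subunit and contains BRD9 with BICRA or BICRAL; SS18 belongs to canonical and non-canonical BAF, and BCL7 proteins to PBAF as well. In blood, BAF complexes are known to act in stem cell maintenance and in the choice between lineages.

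Total counts ran from 12408966 to 28185678 per library. The targeted gene, Arid2, had 162.5, 150.2 and 155 CPM (counts scaled to a common library size) in the libraries labelled knockout, against 165, 154 and 148 CPM in control libraries, so the counts over the whole gene did not separate the groups. Those counts do not show whether a floxed exon was lost, and every direction below rests on the labels. By Xist and Y-linked reads, all 3 libraries labelled knockout and control replicate 2 were female, and control replicates 1 and 3 were male. Of 12 stem and progenitor marker genes, all were detected; 7 were lower and 0 higher by the test described below (summed level 1777 to 1879 CPM in the libraries labelled knockout, against 2214 to 2765 CPM in control libraries). By the same test 3.85% of all genes were higher and 4.58% lower. Of the mature neutrophil markers 4 of 11 were higher and 0 lower (7169 to 9189 CPM in sum, against 2967 to 5742 CPM in control libraries). Of the monocyte, macrophage and dendritic cell markers 6 of 9 were higher and 0 lower (1947 to 2452 CPM, against 1231 to 1453 CPM in control libraries). Of the erythroblast markers 4 of 7 were higher and 0 lower, and their sums overlapped (123 to 366 CPM, against 58.3 to 173 CPM in control libraries). Markers of T and NK cells (0 of 8 changed) had 249 to 318 CPM in the libraries labelled knockout and 198 to 274 CPM in control libraries. B and plasma cell (1 of 5 tested lower; 23.4 to 25.6, against 33.8 to 38.2 CPM), mast cell and basophil (2 of 6 lower; 142 to 277, against 197 to 550.4 CPM), and stroma and endothelium markers (1 of 4 tested lower; 94.6 to 125, against 118 to 132 CPM) had 0 genes higher. No marker in the table was at 0 in every library. The part of cell composition and of sex in the values below was not tested beyond the fits that are given, and in bulk RNA fewer expressing cells cannot be told apart from less RNA per cell.

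The paralogues of each family can be compared only if their reads can be told apart. Over all protein-coding transcripts of GENCODE M21 (mm10), the longest run of identical bases between paralogues was 18 bases for Dpf2 and Dpf3, 19 for Bcl7a and Bcl7c, 21 for Dpf1 and Dpf2, 22 for Ss18 and Ss18l1, 25 for Bcl7a and Bcl7b, 27 for Bcl7b and Bcl7c, 29 for Arid1a and Arid1b and 31 for Dpf1 and Dpf3. An error-free read longer than its pair's run therefore cannot match both genes along its whole length; no source used here gives the read length. The coding stretches that hold the longest Dpf run and the longest Bcl7 run are shown because the levels of these families are set against each other below. Each is 60 bases, 5′ to 3′ on the strand of the gene, within 1 exon, and capitals mark the bases that are identical in all members of the family. The Dpf stretches lie at chr7:29309511-29309570 on the plus strand (Dpf1), chr19:5907002-5907061 on the minus strand (Dpf2) and chr12:83370505-83370564 on the minus strand (Dpf3), and share 45 of 60 bases. The Bcl7 stretches lie at chr5:123344655-123344714 on the plus strand (Bcl7a), chr5:135168532-135168591 on the plus strand (Bcl7b) and chr7:127708443-127708502 on the minus strand (Bcl7c), and share 50 of 60 bases.
Dpf1: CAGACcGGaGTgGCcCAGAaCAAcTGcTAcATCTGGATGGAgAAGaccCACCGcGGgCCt
Dpf2: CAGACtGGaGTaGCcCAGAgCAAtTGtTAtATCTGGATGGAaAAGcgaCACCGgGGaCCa
Dpf3: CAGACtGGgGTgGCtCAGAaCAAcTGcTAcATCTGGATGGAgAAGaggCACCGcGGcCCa
Bcl7a: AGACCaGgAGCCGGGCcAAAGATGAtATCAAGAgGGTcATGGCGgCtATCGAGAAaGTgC
Bcl7b: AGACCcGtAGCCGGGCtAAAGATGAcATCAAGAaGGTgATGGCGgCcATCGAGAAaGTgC
Bcl7c: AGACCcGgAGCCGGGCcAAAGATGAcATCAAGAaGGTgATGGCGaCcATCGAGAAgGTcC

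LSK cells transcribed 8 of the 10 genes at middle to high levels and Dpf1 and Dpf3 hardly at all. Levels were compared between genes as RPKM, the CPM per kilobase of exon sequence in the annotation. Arid1a, the most abundant member, had 40.3 ± 1.9 RPKM (SD, n = 6 libraries of both groups), above 89.4% of the genes tested. Bcl7b had 19.2 ± 0.58 RPKM, Dpf2 19.1 ± 1.2 RPKM and Arid1b 17 ± 1.7 RPKM, and the ranges of neighbours in that order overlapped. Ss18 had 10.6 ± 0.91 RPKM and Brd9 9.32 ± 0.65 RPKM, again with overlapping ranges. Bcl7c had 7.66 ± 0.73 RPKM and Bcl7a 6.68 ± 0.6 RPKM, above 49.5% and 45.7% of the genes tested, and their ranges overlapped too. Dpf3 had 0.289 ± 0.17 RPKM, above 5.09% of the genes tested, and Dpf1 0.0556 ± 0.023 RPKM. The order depends on which exons count as the gene. Per kilobase of the longest protein-coding transcript, 5 of the 10 members took another rank, and Bcl7c, whose annotated exons cover 7222 bases against 1132 bases for that transcript, moved to the second place with 48.8 RPKM, behind Arid1a with 56.5 RPKM. Dpf3 and Dpf1 stayed at the bottom by either length, with 0.389 and 0.13 RPKM per kilobase of that transcript.

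**Figure D1:**
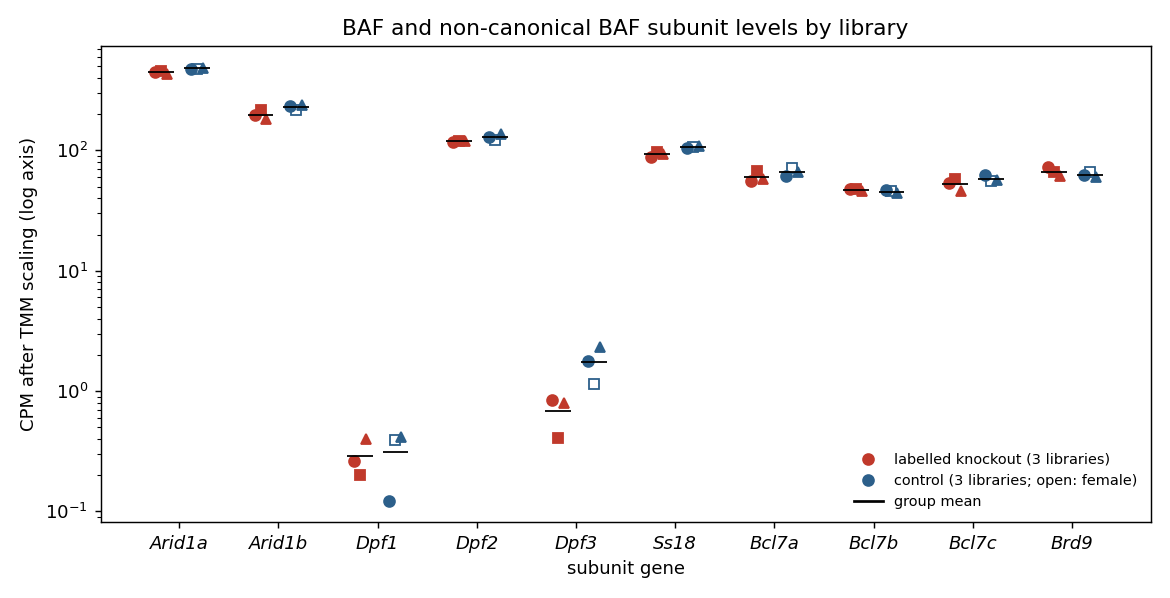
CPM of the 10 subunit genes in each library on a log axis, with libraries labelled knockout in red left of control libraries in blue; circles, squares and triangles are replicates 1, 2 and 3, open squares are the female control library and black bars are group means. Dpf1 and Dpf3 sit below 3 CPM in every library, whereas the 8 other genes sit between 43.9 and 488 CPM.

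No member passed the test between the groups. edgeR's quasi-likelihood test was run over 13679 genes with Benjamini-Hochberg adjustment, and 0 of the 9 members tested had an adjusted p under 0.05, where 8.42% of all genes did; 4.58% were lower and 3.85% higher in the libraries labelled knockout. DESeq2 (which called 12.2% of all genes) and limma-voom (8.06%) called 0 members as well. At an unadjusted p under 0.05 there were 3 of 9 (Ss18, Dpf3 and Arid1b), against 24.9% of all genes in either direction, and all 3 had lower means in the libraries labelled knockout (12.7% of all genes). At an adjusted p under 0.1 there were 2 of 9, Ss18 and Dpf3, against 14.6% of all genes. In 5 of the 9 (Arid1a, Arid1b, Dpf2, Dpf3 and Ss18) every library labelled knockout lay below every control library, against 16.1% of all genes. The log2 fold change, labelled knockout over control, was below 0 in 7 of 9 members (50.4% of all genes), with a median of -0.14 against -0.0016 over all genes. These counts describe the members tested, which do not include Dpf1, and the members share their libraries, so they are not independent of each other. With a term for the replicate number added to the edgeR fit, 2 members passed, Ss18 (adjusted p = 0.0466) and Dpf3 (adjusted p = 0.035). That fit called 1169 genes higher and 1003 lower, and the labels state no litter or batch for the replicate numbers.

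**Figure D2:**
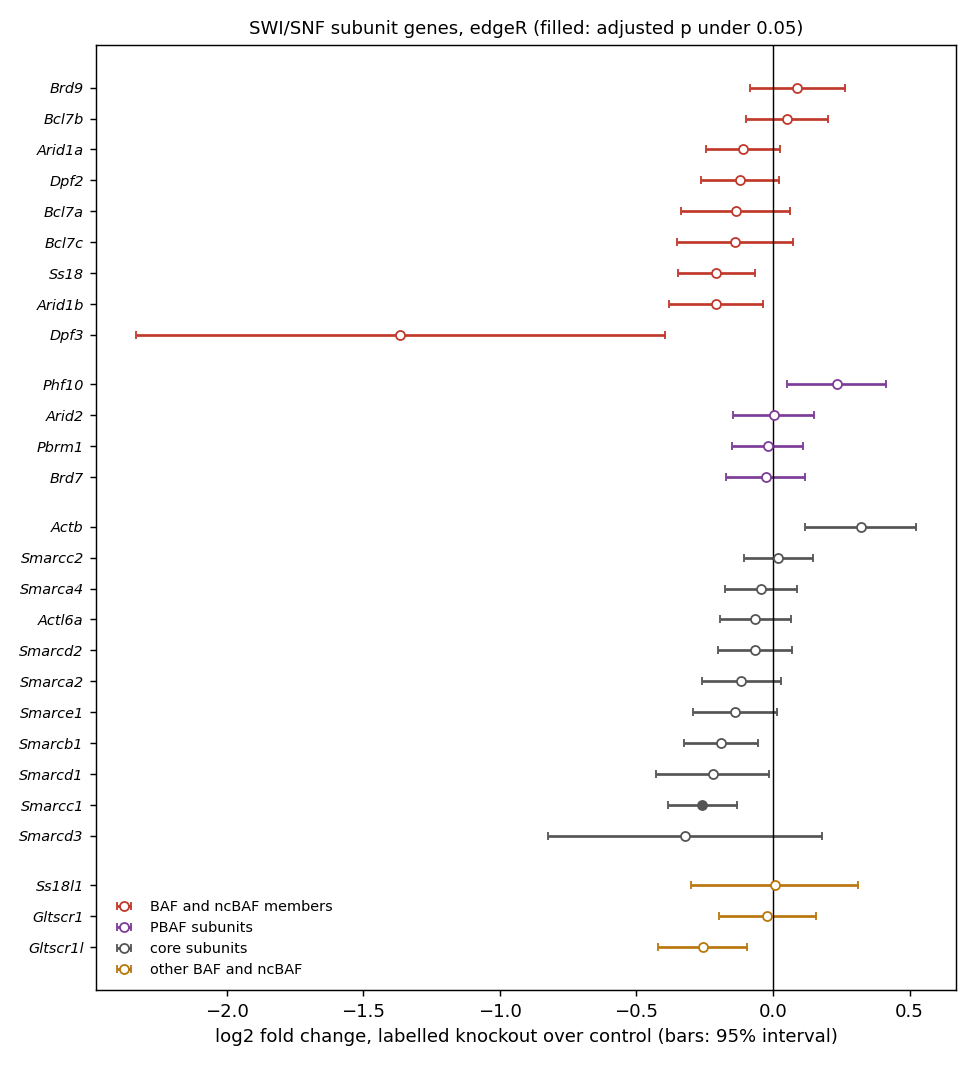
log2 fold changes of SWI/SNF subunit genes, labelled knockout over control, with 95% intervals from edgeR; members of the list stand at the top, and PBAF, core and other BAF genes below them. The sole filled point, an adjusted p under 0.05, is the core gene Smarcc1, and the widest interval is that of Dpf3.

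The ARID subunits carry the DNA-binding domain of canonical BAF. Arid1a (ENSMUSG00000007880, chromosome 4, 133679008 to 133756769, minus strand, mm10), which is often mutated in cancer, had 449, 457 and 429 CPM in the libraries labelled knockout, against 476, 476.5 and 488 CPM in control libraries. The groups did not overlap, but the gap was small beside the level, and the log2 fold change was -0.11 (SE 0.06, 95% interval -0.25 to 0.03, edgeR adjusted p = 0.301, n = 3 each). Its paralogue Arid1b (ENSMUSG00000069729, chromosome 17, 4994332 to 5347656, plus strand) had 198, 215 and 181 CPM in the libraries labelled knockout, against 232.5, 219 and 237 CPM in control libraries. The groups were again apart, with knockout replicate 2 close below the female control replicate 2, and the log2 fold change was -0.21 (SE 0.07, 95% interval -0.38 to -0.04, edgeR adjusted p = 0.124). With a sex term in the model, the log2 fold change was -0.10 for Arid1a and -0.14 for Arid1b. All libraries labelled knockout were female, so this fit, here and below, rests on control replicate 2, the only female control. It cannot separate sex from the spread between control libraries.

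Arid1b made up 28.7%, 30% and 27.8% of the Arid1 family's reads per kilobase in the libraries labelled knockout, against 30.8%, 29.5% and 30.7% in control libraries. The groups overlapped and the mean difference was -1.49 percentage points (exact permutation test, two-sided, p = 0.2; the smallest p that 3 against 3 libraries allow is 0.1). It was -0.66 in the female libraries alone and -0.98 without knockout replicate 3. Arid1a and Arid1b together were set against Arid2, since those proteins are alternatives in the complex. Arid2 is the targeted gene, and its whole-gene reads do not show whether a floxed exon was lost. The ratio is therefore one of RNA reads, and the balance of the proteins was not measured. The log2 ratio was 1.86, 2.02 and 1.84 in the libraries labelled knockout, against 1.96, 2.04 and 2.15 in control libraries, and the groups overlapped (mean difference -0.14, exact permutation p = 0.2; -0.09 without control replicate 3).

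DPF proteins read acetylated and other modified histone tails through paired PHD fingers. Dpf2 (ENSMUSG00000024826, chromosome 19, 5896516 to 5913010, minus strand), the widely expressed member, had 118, 119 and 119.7 CPM in the libraries labelled knockout, against 129.5, 121 and 137 CPM in control libraries. The libraries labelled knockout lay within 2 CPM of each other, and the lowest control, the female replicate 2, was just above them. The log2 fold change was -0.12 (SE 0.06, 95% interval -0.26 to 0.02, edgeR adjusted p = 0.282), with -0.03 under the sex term and -0.08 without control replicate 3.

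Dpf3 (ENSMUSG00000021221, chromosome 12, 83213745 to 83487716, minus strand), known from heart, muscle and neurons, had the largest fold change of the 9 members and the fewest reads. It had 16, 10 and 10 reads in the libraries labelled knockout, against 29, 32 and 34 reads in control libraries. In CPM these were 0.846, 0.403 and 0.802 in the libraries labelled knockout, against 1.78, 1.14 and 2.34 in control libraries. The groups did not overlap, and the control library nearest to those labelled knockout was the female replicate 2. The log2 fold change was -1.36 (SE 0.42, 95% interval -2.33 to -0.40, edgeR adjusted p = 0.0862, n = 3 each), so the test was not passed and the interval spans a ratio from 19.8% to 76% of the control level. With the sex term it was -0.77, without knockout replicate 2 -1.05 and without control replicate 2 -1.62. Dpf3 passed the filter on low counts through all 3 control libraries and 2 of the 3 labelled knockout (0.557 CPM needed in at least 3 libraries), and a gene kept mainly through its higher group is more likely to show a difference.

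Dpf1 (ENSMUSG00000030584, chromosome 7, 29303951 to 29318243, plus strand), the DPF gene of neurons, was at the edge of detection and was removed by the filter. It had 5, 5 and 5 reads in the libraries labelled knockout, against 2, 11 and 6 reads in control libraries, and 15 reads against 19 reads in sum. The groups overlapped, and with no filter on low counts its log2 fold change was -0.18 with an SE of 0.72 (edgeR adjusted p = 0.915), too wide for a difference to be detectable at this depth. An antisense gene, Gm44632, overlaps 96 bases of its exons, and no source used here gives the strand setting of the counting.

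Within the Dpf family, Dpf2 accounted for 98.6%, 99.3% and 98.6% of reads per kilobase in the libraries labelled knockout, against 97.8%, 98.2% and 97.1% in control libraries. Dpf3 accounted for 1.09%, 0.518% and 1.02% in the libraries labelled knockout, against 2.07%, 1.42% and 2.56% in control libraries. The groups were apart for both shares, at the smallest p the design allows (exact permutation p = 0.1 each, adjusted p = 0.25 after Benjamini-Hochberg adjustment over the 10 shares and ratios tested). The shift of Dpf2, 1.13 percentage points, is the counterpart of that of Dpf3, -1.14 percentage points, because shares sum to a fixed total. In the female libraries alone, with 1 control, the shifts were 0.63 and -0.54 percentage points.

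**Figure D3:**
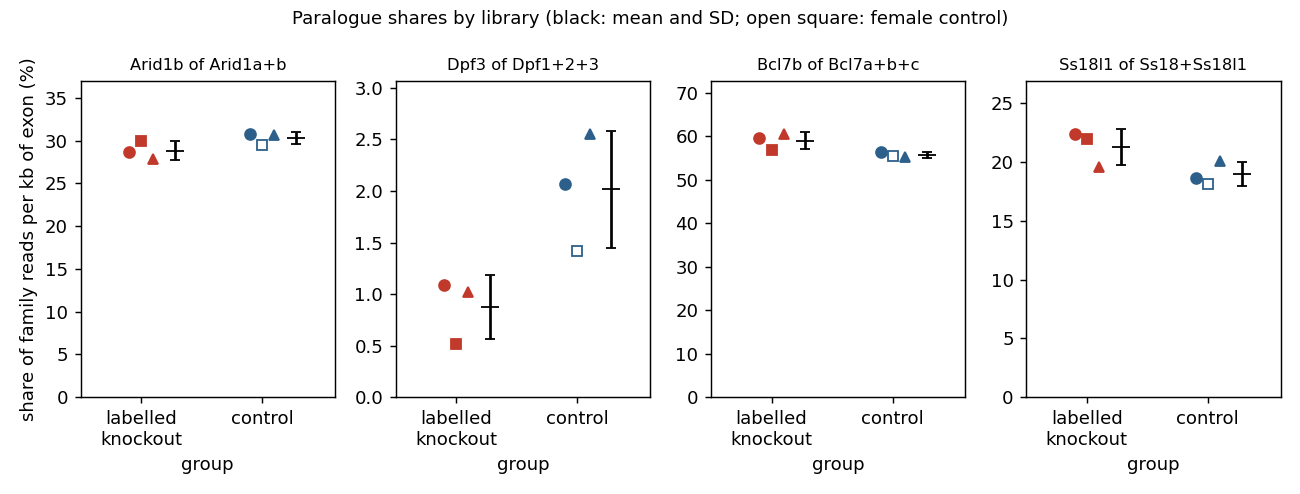
Share of a family's reads per kilobase of exon, in percent, for Arid1b, Dpf3, Bcl7b and Ss18l1, each axis starting at 0; libraries labelled knockout stand left of control libraries, symbols are replicates 1 to 3, the open square is the female control and black marks are the mean and SD. Dpf3 and Bcl7b are apart between the groups, whereas Arid1b and Ss18l1 overlap.

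SS18, known from its fusion to SSX in synovial sarcoma, is a subunit of canonical and non-canonical BAF. Ss18 (ENSMUSG00000037013, chromosome 18, 14624198 to 14682914, minus strand) had 87.4, 96.3 and 93.9 CPM in the libraries labelled knockout, against 104, 107 and 109 CPM in control libraries. No library of either group reached the other, and the female control lay in the middle of the controls. The log2 fold change was -0.21 (SE 0.06, 95% interval -0.35 to -0.07, edgeR adjusted p = 0.0779, n = 3 each), the smallest p of the 9 members, and it did not pass. It was also -0.21 with the sex term, which rests on the only female control. When libraries were left out in turn it was -0.17 to -0.24, with edgeR adjusted p of 0.138 to 0.226. Its paralogue Ss18l1, which takes the place of SS18 in neuronal BAF, had 11.6, 12.5 and 10.5 CPM in the libraries labelled knockout, against 11, 10.9 and 12.7 CPM in control libraries. Ss18l1 held 21.3% ± 1.5 of the reads per kilobase of the pair in the libraries labelled knockout and 19% ± 1 in control libraries (SD, n = 3 each; exact permutation p = 0.2), with overlap.

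BCL7 proteins are small subunits of the complexes, and BCL7A was found at a chromosome break of a lymphoma. Bcl7a (ENSMUSG00000029438, chromosome 5, 123343834 to 123374992, plus strand) had 56.2, 66.9 and 57.9 CPM in the libraries labelled knockout, against 61.7, 70.8 and 66.6 CPM in control libraries. In both groups replicate 2 was the highest, and the groups overlapped (log2 fold change -0.14, SE 0.09, 95% interval -0.33 to 0.06, edgeR adjusted p = 0.378). It was -0.23 with the sex term, -0.08 without control replicate 2, -0.09 without knockout replicate 1 and -0.22 without knockout replicate 2. Bcl7c (ENSMUSG00000030814, chromosome 7, 127661456 to 127708933, minus strand) had 54.1, 57.4 and 46.1 CPM in the libraries labelled knockout, against 62, 55.7 and 56.5 CPM in control libraries. These groups overlapped as well (log2 fold change -0.14, SE 0.09, 95% interval -0.35 to 0.07, edgeR adjusted p = 0.395). Adding the sex term gave -0.08. Leaving out single libraries gave -0.06 (knockout replicate 3), -0.21 (knockout replicate 2) and -0.09 (control replicate 1). The microRNA gene Mir762 overlaps 76 bases of the exons of Bcl7c on the other strand.

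Bcl7b (ENSMUSG00000029681, chromosome 5, 135168283 to 135181855, plus strand), a gene of the Williams syndrome region, varied little. It had 47.7, 47.5 and 46.1 CPM in the libraries labelled knockout, against 46.8, 45.6 and 43.9 CPM in control libraries, and the groups overlapped. The log2 fold change was 0.05 (SE 0.07, 95% interval -0.10 to 0.20, edgeR adjusted p = 0.677; 0.03 without control replicate 3), an interval from 93.4% to 115% of the control level. Its share of the Bcl7 family was 59.6%, 56.8% and 60.6% in the libraries labelled knockout, against 56.3%, 55.6% and 55.2% in control libraries. Here the groups were apart, with the male control replicate 1 nearest to the libraries labelled knockout. The mean difference was 3.34 percentage points, at the smallest p the design allows (exact permutation p = 0.1, adjusted p = 0.25). The shares of Bcl7a (19.1% ± 1.2, against 20.6% ± 1.6 in control libraries) and Bcl7c (21.9% ± 1.5, against 23.7% ± 1.1) overlapped (SD, n = 3 each; exact permutation p = 0.3 and 0.2). The difference in the Bcl7a share, -1.5 percentage points, was -0.84 with knockout replicate 1 left out, -0.89 with control replicate 2 left out and -2.4 with control replicate 1 left out. That in the Bcl7c share, -1.84, was -0.98 with knockout replicate 3 left out. Which gene leads the family depends on the length used, since per kilobase of the longest coding transcript Bcl7c held 53.9% in the libraries labelled knockout and 56.2% in control libraries.

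BRD9, a bromodomain protein, marks non-canonical BAF, and its close relative BRD7 belongs to PBAF. Brd9 (ENSMUSG00000057649, chromosome 13, 73937811 to 73960895, plus strand) had 72.8, 65.7 and 61.9 CPM in the libraries labelled knockout, against 62.6, 65.7 and 60.1 CPM in control libraries. The groups overlapped, with knockout replicate 1 above every control, knockout replicate 2 level with the highest control and knockout replicate 3 among the controls. The log2 fold change was 0.09 (SE 0.08, 95% interval -0.09 to 0.27, edgeR adjusted p = 0.521). It was 0.02 without knockout replicate 1, 0.14 without knockout replicate 3 and 0.03 with the sex term. The log2 ratio of Brd9 to Brd7 per kilobase was -1.19, -1.26 and -1.28 in the libraries labelled knockout, against -1.39, -1.33 and -1.36 in control libraries. This ratio was apart between the groups, by 0.11 on average (exact permutation p = 0.1, adjusted p = 0.25), with the female control nearest to the libraries labelled knockout. The partners BICRA and BICRAL of BRD9 appear in the table under the older symbols Gltscr1 and Gltscr1l. Gltscr1l had 50.6, 50.5 and 49.5 CPM in the libraries labelled knockout, against 56.3, 59 and 64.9 CPM in control libraries. The groups did not overlap, and the male control replicate 1 was nearest to the libraries labelled knockout. The log2 fold change was -0.26 (SE 0.07, edgeR adjusted p = 0.0624). Gltscr1 had 49.6 ± 2.7 CPM in the libraries labelled knockout and 50.4 ± 3.3 CPM in control libraries (SD, n = 3 each; log2 fold change -0.02, edgeR adjusted p = 0.901).

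The spread between libraries was wider than counting error in 7 of the 8 abundant genes. Within groups the coefficient of variation ran from 2.53% (Arid1a) to 8.9% (Bcl7c) for the 8 abundant genes, where counting alone gives 1.11% for Arid1a and 3.23% for Bcl7c. Bcl7b went the other way, with 2.59% against 3.5% from counting. For Dpf3 it was 35%, against 24.4% from counting. For those 8 genes the 95% intervals lay between 76.8% (the lower bound of Arid1b) and 120.1% (the upper bound of Brd9) of the control level.

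The other 19 SWI/SNF genes served as the setting for these values. Of 18 tested, 0 were higher, 1 was lower and 17 did not pass, with 13 log2 fold changes below 0 and a median of -0.05. The gene past the test was Smarcc1, a scaffold of all forms of the complex. It had 211 ± 3.1 CPM in the libraries labelled knockout and 253 ± 7.1 CPM in control libraries (SD, n = 3 each). Its log2 fold change was -0.26 (SE 0.06, edgeR adjusted p = 0.0289), and -0.29 with the sex term, which rests on 1 female control. When libraries were left out in turn, Smarcc1 passed in 1 fit, that without control replicate 3 (adjusted p = 0.0474), and had adjusted p of 0.0664 to 0.0983 in the other 5. Actb, which encodes the actin of the complex and of the cytoskeleton, had a log2 fold change of 0.32 (edgeR adjusted p = 0.061). Actb passed with DESeq2 (adjusted p = 0.0027) and limma-voom (adjusted p = 0.037), and its log2 fold change was 0.18 with the sex term. Of the 4 PBAF genes 0 passed, with Phf10 at 0.23 (adjusted p = 0.11) and Brd7 at -0.03 (adjusted p = 0.835). In 5 of the 18 every library labelled knockout was below every control, and in 2 above, against 16.1% and 15.1% of all genes.

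Across the 6 libraries, the genes with profiles nearest to those of Ss18 and Dpf3 were looked up by the root mean square difference of log2 CPM, each gene centred on its own mean. Nearest to Ss18 were Rasa1 (0.0209), Zfp553 (0.0213) and Smyd3 (0.0234), where the median gene of 11401 compared was at 0.175. Their own log2 fold changes were -0.21, -0.19 and -0.22, and none passed the test (edgeR adjusted p = 0.107, 0.179 and 0.119). Nearest to Dpf3 were Syde1 (0.176), Tead2 (0.191) and Bgn (0.219), where the median gene was at 0.75. Of these Tead2 passed the test (3.21 CPM on average in the libraries labelled knockout and 7.47 CPM in control libraries, log2 fold change -1.21, edgeR adjusted p = 0.0404), while Syde1 and Bgn had -1.06 and -1.19 (adjusted p = 0.0591 and 0.0604). The 6 libraries and 2 groups give such a ranking few independent points. Genes picked for a near profile over these libraries have a near fold change by selection, so their fold changes are not a separate result.

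**Figure D4:**
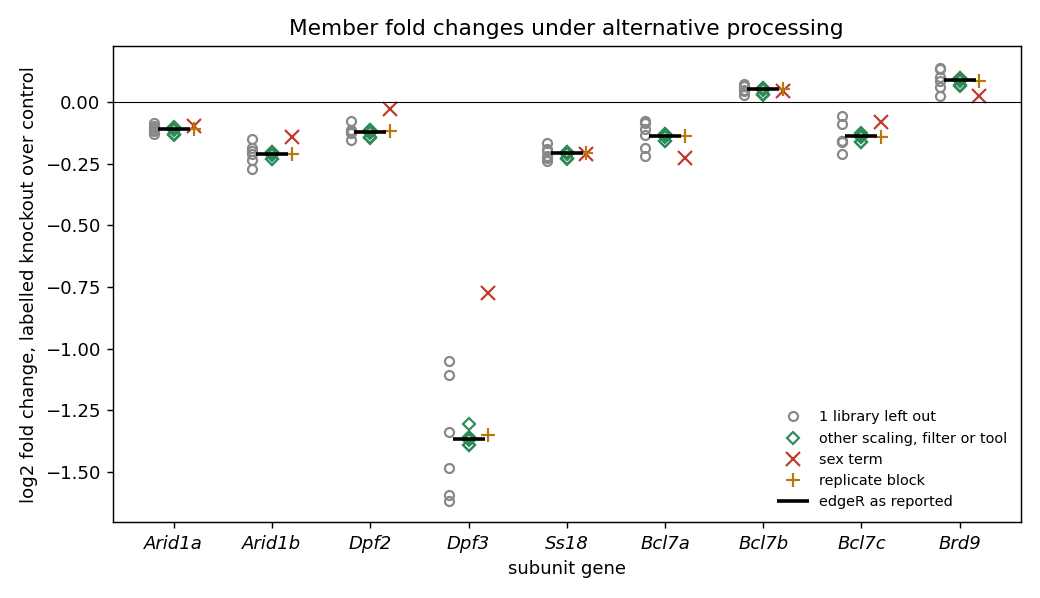
log2 fold changes of the 9 members tested, labelled knockout over control, as reported (black bar) and under alternatives: 1 library left out (grey), another scaling, filter or tool (green), a sex term (red cross) and a replicate block (orange plus). No member changes sign, and the sex term gives -0.77 for Dpf3, reported as -1.36, and -0.03 for Dpf2, reported as -0.12.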

How the data were processed

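The authors deposited raw read counts per gene symbol, as whole numbers without normalization, for 6 libraries. The submitters' processing notes name STAR and mm10; no source used here gives the counting tool, its annotation or strand setting, and poly(A) selection and a directional kit are given per the labels' protocols. Pairs of libraries differed by at least 10.7 in chi-square per degree of freedom, so none repeated another.

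Counts were tested with edgeR 4.0.16 (R 4.3.3): filterByExpr (minimum count 10, minimum total 15), TMM scaling, quasi-likelihood F test on group, Benjamini-Hochberg adjustment over 13679 genes, threshold 0.05. The SE is the absolute log2 fold change over the root of F. CPM and RPKM were computed here; lengths are merged exons of GENCODE M21, which matched 22781 symbols by name. Shares and ratios were compared by exact permutation (SciPy 1.17.1). DESeq2 1.42.0 and limma 3.58.1 served as alternatives, with other scalings, filters, a sex term, a replicate block and each library left out. Tested on simulated data for knockout against control (13521 genes), the fit found 77 of 100 genes with a 2-fold change and 96 of 100 with a 4-fold change, with 8 false calls among 181. Only changes of those sizes were planted, without a difference in sex or cell composition between the groups. Recovery of smaller changes, such as those of the abundant members, was not tested.

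The members and lists were chosen with earlier results of these data known. All 10 members are named, with genes past the test and the 2 smallest p of each other SWI/SNF list. For the members with the smallest p and the largest fold change, the 3 nearest profiles are named. Those were sought among genes that average 1 log2 CPM or more. Symbols of predicted gene models, Rik and clone entries, pseudogenes, Xist, Tsix and Y-linked genes were left out of that search. Other genes named are annotation neighbours.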

Additional observations from a re-analysis of the deposited data

How the results depend on the processing

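Of 135 member fold changes recomputed under 15 alternatives, 0 reversed, 133 kept their direction and side of the threshold, and 2 became calls, Ss18 (log2 fold change -0.21, adjusted p = 0.0466) and Dpf3 (-1.35, adjusted p = 0.035), both with the replicate block. The labels state no litter or batch for the replicate numbers, so the reported fit has no block. Deviations of same-numbered libraries correlated at 0.293, -0.005 and 0.339, and those of differently numbered libraries at -0.331 to 0.058. Whether the numbers stand for a pairing was not tested. The sex-term counts below rest on control replicate 2, the only female control. Members past the threshold numbered 2 with the replicate block and 2 at an adjusted p under 0.1. Genes past it (526 higher and 626 lower) numbered 1169 higher and 1003 lower with the replicate block, 7 and 36 with the sex term, 951 and 1051 at an adjusted p under 0.1, and 833 higher with DESeq2 (835 lower), and 119 to 440 higher and 171 to 544 lower when libraries were left out (266 and 264 without knockout replicate 1, 119 and 171 without 2, 208 and 300 without 3, 189 and 284 without control replicate 1, 409 lower without 3). Other SWI/SNF genes past it (1) numbered 2 with DESeq2, 2 with limma-voom, 4 with the replicate block, 0 with the sex term, 4 at an adjusted p under 0.1 and 0 to 1 when libraries were left out. The order of member levels changed at 5 members with the longest coding transcript and at 0 to 2 when libraries were left out. Of the shares and ratios, only the Dpf1 share (a difference of 0.0071 percentage points) reversed, to -0.093 in female libraries alone and over -0.078 to 0.057 with libraries left out. The others kept their sign but moved: in female libraries alone the difference was -0.54 for Dpf3 (-1.14 with all libraries), 0.63 for Dpf2 (1.13), -0.66 for Arid1b (-1.49), -0.73 for Bcl7c (-1.84) and -2.72 for Bcl7a (-1.5) percentage points. The causes were not tested. Dpf1 and Dpf3 had the fewest reads, 34 and 131 in all.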
